A study of Oryza sativa with 6 samples.

Results

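The AP2/ERF family of transcription factors was followed in leaf RNA of 4-week-old rice across 3 genotypes. Members were taken from the authors' expression table by the words in each transcript's description (AP2, ERF, ethylene response, DREB, dehydration-responsive element, or pathogenesis-related transcriptional factor). The matching used no measured value, but the members were chosen with earlier results of these data known. The rule also names Os03g0191900, which the words match. The words matched 36 of 7194 listed transcripts. In 8 of the 36 they name another protein, namely 2 peptide chain release factors (eRF1), 4 phosphatidic acid or lipid phosphate phosphatases (PAP2 or LPP2), a HAP2-GCS1 domain protein and a VAP27-2-like protein. The remaining 28 transcripts, of 28 genes on 9 chromosomes, describe AP2/ERF factors and are the family described here. The gene ontology table deposited with the series attached the term for DNA-binding transcription factor activity to 26 of the 28, to 0 of the 8 other proteins and to 228 listed transcripts in all, and the word rule did not use that term. Each of the 28 genes had a single listed transcript, and for 6 of them it was the second annotated transcript.

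AP2/ERF proteins share a plant DNA-binding domain named after APETALA2 and the ethylene-responsive element binding factors. DREB-type members bind the dehydration-responsive element in promoters of cold, drought and salt response genes, and members of the DREB1 group are known in rice and Arabidopsis as cold-inducible activators. ERF-type members typically bind the GCC box found in defence and ethylene response genes. Some ERF proteins carry an EAR motif and repress transcription instead of activating it. In leaves the family is known for quick changes of transcript level under stress and wounding.

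The libraries were 2 from transgenic plants that overexpressed MIR171f throughout the plant (OX, lines 3 and 5), 2 from CRISPR-Cas9 knockout mutants of the same gene (KO, both carrying line number 2), and 2 from nontransgenic controls (WT). MIR171f encodes a microRNA of the miR171 family, which guides cleavage of transcripts for Scarecrow-like factors. By its title, the study asked how this microRNA bears on drought tolerance and flavonoid genes. The labels name neither the promoter of the transgene nor the cultivar, and they do not say whether the 2 WT or the 2 KO libraries came from separate plants. All p-values therefore measure only the spread between these libraries. In WT and KO that spread may be technical, while in OX it also takes in any difference between lines 3 and 5. As both KO libraries carry the same line number, effects of the knockout and of that line cannot be told apart. Polyadenylated RNA of whole leaves was sequenced, so fewer cells of a type and less RNA per cell cannot be told apart.

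Every listed transcript had passed the authors' limits (a 2-fold change with an unadjusted p under 0.05) in 1 or more of their 3 comparisons, so each count below is a count among transcripts selected for change. Listed reads came to between 7376228 and 8192874 in OX, between 8452027 and 8802235 in KO, and between 9294810 and 9739821 in WT libraries. Effective library totals, as the authors scaled them, came to 31743854 and 34214364 in OX, 26078166 and 27349913 in KO, and 25823009 and 23869522 in WT. Levels are given as CPM, counts scaled to these totals. No description in the table names a MIR171 precursor (0 of 7194), so the overexpressed and mutated gene itself was not checked here. A transcript is called higher or lower where the adjusted p of edgeR's quasi-likelihood test is below 0.05.

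Among AP2/ERF transcripts, 3 DREB1-like genes, a stress-annotated gene and Os03g0191900 rose in KO leaves, by 2.30-fold to 14.8-fold. Of these, the DREB1E-like Os02g0676800, the stress-annotated Os02g0654700 and Os03g0191900 were also called higher in OX versus WT. The smallest rise, that of Os09g0522100, was not called when library sizes came from DESeq2 size factors or TMM. The abundant starch-annotated Os05g0121600 and Os03g0183300 fell in OX leaves, by 2.21-fold and 2.24-fold. Os05g0121600 was also called lower in KO versus WT. In OX versus WT, 5 of the 28 transcripts were called higher and 8 lower, against 25% of all 7034 fitted transcripts called higher and 19% called lower. The family's shares were 17.9% higher and 28.6% lower. In KO versus WT, 10 were called higher and 6 lower, but 6 higher and 10 lower when library sizes came from DESeq2 size factors or TMM. The shares, 35.7% and 21.4%, stand beside 25% and 11% of all fitted transcripts. In OX versus KO, 1 was called higher and 12 lower (3.57% and 42.9%), against 13.3% and 25% of all fitted transcripts. Over the 36 word matches the counts were 8 higher and 9 lower for OX versus WT, 12 and 7 for KO versus WT, and 3 and 15 for OX versus KO. In total 21 of the 28 were called in at least 1 comparison and 7 in none.

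The median log2 fold change of the 28 transcripts was −0.74 in OX versus WT, 0.13 in KO versus WT and −0.88 in OX versus KO. Over all fitted transcripts the medians were 0.28, 0.43 and −0.41 in the same order. The family's median thus differed from that of all transcripts by −1.02 log2 units in OX versus WT, with differences of −0.31 and −0.48 in the other comparisons. Other scalings moved the median of all transcripts by −0.56 to 0.38. They shift every transcript of a comparison by nearly the same amount, so they bear on the level of the family's median and not on its distance from that of all transcripts. Of the 28, 21 lay below the median of all transcripts in OX versus WT, 15 in KO versus WT and 18 in OX versus KO. The libraries of the groups did not overlap for 24, 25 and 25 of the 28, beside 84.7%, 79.3% and 84.0% of all fitted transcripts, so separation of the libraries was about as common in the family as in the whole table.

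**Figure D1:**
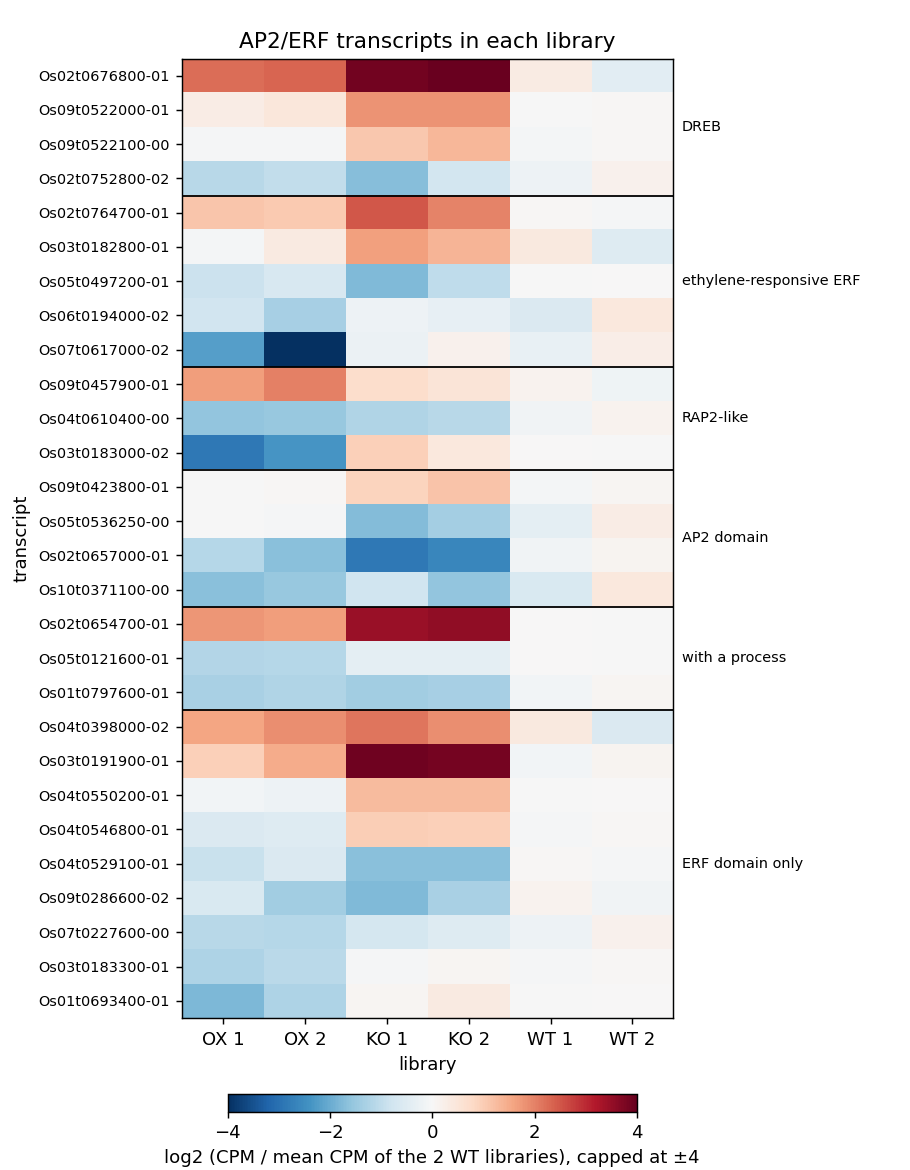
Level of each of the 28 AP2/ERF transcripts (rows, grouped by description) in each of the 6 libraries (columns) as log2 of its CPM over the mean CPM of the 2 WT libraries, with red above and blue below the WT mean and colours capped at ±4. The KO columns are the reddest for Os02t0676800-01, Os02t0654700-01 and Os03t0191900-01, and the OX columns are the bluest for Os03t0183000-02 and Os07t0617000-02.

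Of the 4 DREB-type transcripts, 3 resemble DREB1 proteins and all 3 were called higher in KO than in WT leaves. Os02g0676800, a DREB1E-like gene (chromosome 2, 27621222 to 27622912, IRGSP-1.0), had 7.43 and 7.92 CPM in OX, 22.8 and 24.1 CPM in KO and 1.97 and 1.17 CPM in WT libraries. The 3 genotypes did not overlap, with KO highest and WT lowest. Its log2 fold change was 2.28 in OX versus WT (SE 0.25, adjusted p = 0.00376) and 3.89 in KO versus WT (SE 0.27, adjusted p = 7.17e-04), and both calls stood under all 12 alternative settings. The difference between OX and KO, −1.61 (SE 0.24, adjusted p = 0.0118), was no longer called once any of the 4 OX and KO libraries was left out (adjusted p between 0.0676 and 0.0927).

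Os09g0522000, a DREB1B-like gene (chromosome 9, 20395262 to 20395703), had 18.0 and 20.1 CPM in OX, 50.9 and 51.2 CPM in KO and 14.4 and 15.1 CPM in WT. KO libraries stood apart from the 4 others. The log2 fold change was 1.79 in KO versus WT (SE 0.09, adjusted p = 2.95e-04) and −1.42 in OX versus KO (SE 0.09, adjusted p = 6.38e-04). In OX versus WT it was 0.37 (adjusted p = 0.0673), which passed with plain library totals (0.74, adjusted p = 0.00379) and with the DESeq2 Wald test (adjusted p = 0.0352).

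Os09g0522100, a DREB1H-like gene 3.75 kb further along chromosome 9 (20399458 to 20400198), had 3.69 and 3.71 CPM in OX, 8.17 and 9.58 CPM in KO and 3.68 and 4.02 CPM in WT. Here too the KO libraries were highest, and OX and WT libraries overlapped. Its call in KO versus WT (log2 fold change 1.2, SE 0.18, adjusted p = 0.0139) did not hold with DESeq2 size factors or TMM (adjusted p = 0.0931 and 0.125) or without any KO or WT library (0.0533 to 0.0983). The call in OX versus KO (−1.26, SE 0.18, adjusted p = 0.0113) was lost without either OX library or KO library 2 (0.0806 to 0.0834). Any near-identical stretches of these neighbouring DREB1-like genes may share reads. How reads with several matches were counted is not given in the sources used here, and the sequences were not compared. The DREB2B-like transcript of Os02g0752800, named to complete the group, was not called, with log2 fold changes of −1.05, −1.13 and 0.08 in the 3 comparisons (adjusted p = 0.189, 0.180 and 1.00). The DESeq2 Wald test called it lower in OX and in KO than in WT (adjusted p = 0.0421 and 0.0271), as did edgeR in OX without KO library 1 or 2 (0.0310 and 0.0323) and in KO without KO library 2 (0.0269).

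Of 3 members annotated with a process, 2 were called in all 3 comparisons, in opposite directions against WT. Os02g0654700, annotated for abiotic stress response (chromosome 2, 26422187 to 26423485), had 11.4 and 10.7 CPM in OX, 36.7 and 39.0 CPM in KO and 3.37 and 3.31 CPM in WT. Each genotype occupied its own range, with KO highest. The log2 fold changes were 1.72 in OX versus WT (SE 0.11, adjusted p = 4.52e-04), 3.50 in KO versus WT (SE 0.11, adjusted p = 8.30e-05) and −1.78 in OX versus KO (SE 0.10, adjusted p = 4.51e-04). All 3 calls stood under the 12 alternatives.

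Os05g0121600, an AP2/EREBP factor annotated for starch biosynthesis (chromosome 5, 1156300 to 1159703), moved the other way. It had 165 and 168 CPM in OX, 283 and 281 CPM in KO and 371 and 366 CPM in WT libraries. OX was lowest and WT highest, with a narrow spread within each genotype. The log2 fold changes were −1.15 in OX versus WT (SE 0.04, adjusted p = 9.83e-05), −0.39 in KO versus WT (SE 0.04, adjusted p = 0.00294) and −0.76 in OX versus KO (SE 0.04, adjusted p = 3.26e-04), and these 3 calls also stood under the 12 alternatives.

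Os01g0797600 is annotated as a repressor with an EAR motif in stress signalling (chromosome 1, 33766984 to 33768044). It had 23.5 and 24.9 CPM in OX, 21.7 and 22.6 CPM in KO and 53.6 and 61.0 CPM in WT. Both altered genotypes lay below WT, by a log2 fold change of −1.24 in OX (SE 0.09, adjusted p = 9.21e-04) and −1.37 in KO (SE 0.09, adjusted p = 7.55e-04). It is the only one of the 28 with an ethylene term in the ontology table. OX versus KO was not called at 0.12 (adjusted p = 1.00), but was called higher with DESeq2 size factors (0.44, adjusted p = 0.0357) and TMM (0.50, adjusted p = 0.0183).

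For 9 members the description gives only the ERF domain, and they moved in both directions. Of these 9, 2 were called higher and 4 lower in OX versus WT, and 4 higher and 2 lower in KO versus WT. Os03g0191900 (chromosome 3, 4780248 to 4781570) had 5.80 and 8.36 CPM in OX, 44.0 and 42.1 CPM in KO and 2.75 and 3.23 CPM in WT. KO libraries were far above the others, a 14.4-fold rise over WT (log2 fold change 3.85, SE 0.22, adjusted p = 4.13e-04). In OX the level was 2.37-fold that of WT (1.24, SE 0.21, adjusted p = 0.0164), a call that was lost without WT library 1 or 2 (adjusted p = 0.0972 and 0.0624), and it was 6.07-fold lower than in KO (−2.60, SE 0.21, adjusted p = 0.00124).

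Os04g0546800 was the only member called in opposite directions in OX and KO versus WT. It had 21.7 and 22.7 CPM in OX, 63.9 and 62.6 CPM in KO and 31.4 and 33.3 CPM in WT. OX libraries were lowest and KO libraries highest, without overlap. The log2 fold change was −0.54 in OX versus WT (SE 0.07, adjusted p = 0.00732), 0.97 in KO versus WT (SE 0.07, adjusted p = 0.00101) and −1.51 in OX versus KO (SE 0.07, adjusted p = 2.84e-04). The OX call was lost with plain library totals (−0.17, adjusted p = 0.279) and without OX library 1 (adjusted p = 0.0522).

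Os03g0183300 (chromosome 3, 4372269 to 4373460) had 76.0 and 85.1 CPM in OX, 176 and 192 CPM in KO and 173 and 188 CPM in WT. KO and WT libraries overlapped and OX lay below both. The log2 fold change was −1.16 in OX versus WT (SE 0.09, adjusted p = 8.29e-04) and −1.19 in OX versus KO (SE 0.09, adjusted p = 9.04e-04). In KO versus WT it was 0.03 (adjusted p = 1.00), and with DESeq2 size factors or TMM the transcript was called lower there, at −0.46 (adjusted p = 0.0225) and −0.53 (adjusted p = 0.0114).

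Os01g0693400 was likewise low in OX, with 7.53 and 11 CPM, against 27.3 and 33.3 CPM in KO and 25.9 and 26.0 CPM in WT. Its log2 fold change was −1.48 in OX versus WT (SE 0.21, adjusted p = 0.00927, lost without WT library 1 or 2 at 0.0583 and 0.0594) and −1.71 in OX versus KO (SE 0.21, adjusted p = 0.00654). Os07g0227600 had 5.89 and 5.79 CPM in OX, 7.82 and 8.96 CPM in KO and 11.1 and 14.3 CPM in WT. Its fall in OX versus WT (−1.12, SE 0.18, adjusted p = 0.0145) was lost with plain library totals (adjusted p = 0.0540) and without OX library 1, OX library 2 or WT library 2 (0.0588 to 0.0950). In KO versus WT it was called lower with DESeq2 size factors and TMM only (adjusted p = 0.0175 and 0.0117).

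Os04g0550200 had 3.40 and 3.16 CPM in OX, 8.70 and 8.81 CPM in KO and 3.60 and 3.69 CPM in WT, so that only KO stood apart clearly. Its rise in KO versus WT (1.26, SE 0.17, adjusted p = 0.00909) did not hold with DESeq2 size factors and TMM (adjusted p = 0.0591 and 0.0823) and without KO library 1, KO library 2 or WT library 1 (0.0506 to 0.0665). The fall in OX versus KO (−1.42, SE 0.17, adjusted p = 0.00591) was lost without OX library 2 (0.0527).

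The last 3 of these 9 rest on weaker calls. Os04g0398000 had 5.36 and 6.43 CPM in OX, 7.90 and 6.51 CPM in KO and 2.36 and 1.21 CPM in WT. Its rises, 1.71 in OX (SE 0.36, adjusted p = 0.0374) and 2.0 in KO (SE 0.36, adjusted p = 0.0257) against WT, were lost under 8 and 7 of the 12 alternatives. Os04g0529100 had 1.58 and 1.93 CPM in OX, 0.920 and 0.914 CPM in KO and 3.02 and 2.81 CPM in WT, and Os09g0286600 had 10.5 and 6.08 CPM in OX, 4.72 and 6.51 CPM in KO and 17.5 and 14.6 CPM in WT. Os04g0529100 was lowest in KO, and for Os09g0286600 the KO and OX libraries overlapped below WT. Their calls in KO versus WT (−1.66, SE 0.26, adjusted p = 0.0152 for Os04g0529100 and −1.51, SE 0.32, adjusted p = 0.0472 for Os09g0286600) were lost when any KO or WT library was left out. That of Os09g0286600 was also lost with plain library totals (adjusted p = 0.0802) and with the replicate block (0.0981). In OX versus KO, Os04g0529100 was not called (0.93, adjusted p = 0.108). It was called higher there with DESeq2 size factors (1.25, adjusted p = 0.0403) and TMM (1.30, adjusted p = 0.0369).

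**Figure D2:**
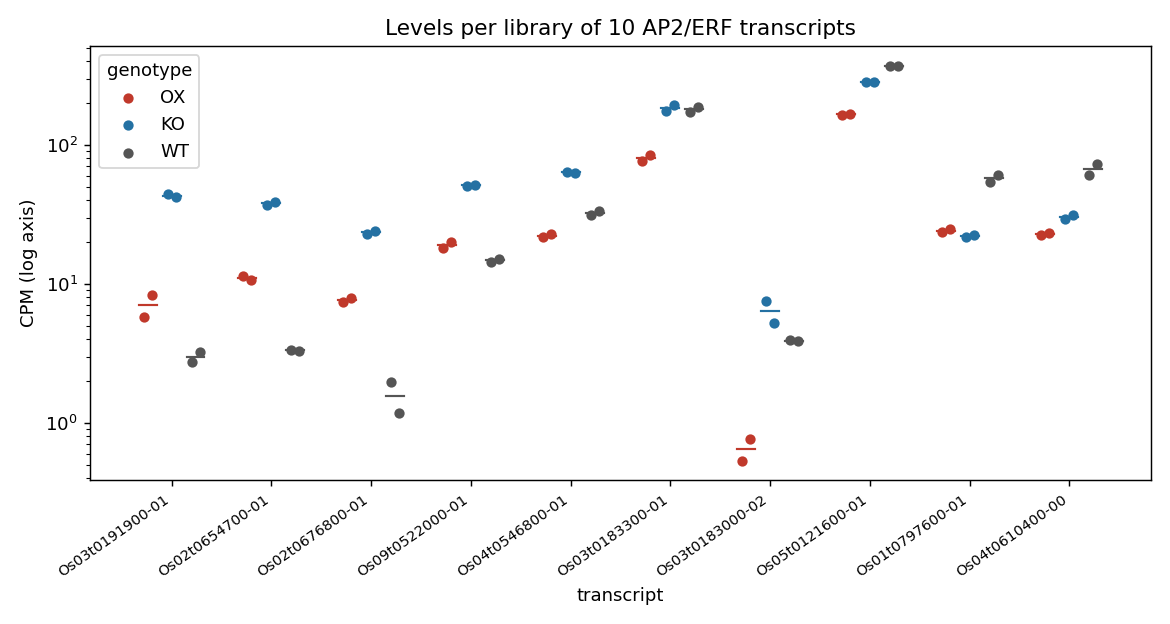
CPM on a log axis for 10 AP2/ERF transcripts in OX (red), KO (blue) and WT (grey), where each point is a library and each short line the mean of the 2 libraries. Os03t0191900-01, Os02t0654700-01 and Os02t0676800-01 are highest in KO and lowest in WT, while Os05t0121600-01, Os01t0797600-01 and Os04t0610400-00 are highest in WT.

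The 3 transcripts described as similar to RAP2.6, an Arabidopsis member of the family, did not move together. Os09g0457900 had 5.80 and 7.37 CPM in OX, 2.95 and 2.60 CPM in KO and 2.01 and 1.63 CPM in WT. OX libraries were highest, at 1.85 log2 units above WT (SE 0.25, adjusted p = 0.00767, lost without OX library 2 at 0.0526). It was also the only transcript called higher in OX than in KO (1.25, SE 0.24, adjusted p = 0.0335), and that call was lost without any OX or KO library (adjusted p from 0.0888 to 0.190) and when the replicate number entered the model (0.0793).

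Os04g0610400 had 22.3 and 23.3 CPM in OX, 29.2 and 31.2 CPM in KO and 60.7 and 72.9 CPM in WT. Both altered genotypes were below WT, by −1.55 in OX (SE 0.11, adjusted p = 7.39e-04) and −1.15 in KO (SE 0.11, adjusted p = 0.00244). Os03g0183000 had 0.536 and 0.760 CPM in OX, 7.55 and 5.27 CPM in KO and 3.95 and 3.85 CPM in WT. OX was lowest, with a log2 fold change of −2.58 against WT (SE 0.31, adjusted p = 0.00502) and −3.30 against KO (SE 0.32, adjusted p = 0.00251), while KO versus WT was not called (0.72, adjusted p = 0.324).

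Of the 5 transcripts named as ethylene-responsive factors, 1 was called. Os02g0764700 resembles AtERF4, a repressor with an EAR motif in Arabidopsis. It had 1.39 and 1.32 CPM in OX, 3.57 and 2.56 CPM in KO and 0.658 and 0.628 CPM in WT. KO was highest and WT lowest, and the rise in KO versus WT (log2 fold change 2.24, SE 0.30, adjusted p = 0.00885) was lost without WT library 1 or 2 (adjusted p = 0.0542 and 0.0578). For the 4 others the adjusted p was at least 0.0661 in every comparison. Of these, Os05g0497200 was called lower in KO versus WT with DESeq2 size factors and TMM (adjusted p = 0.0282 and 0.0248), and Os06g0194000 lower in OX versus WT without WT library 1 (0.0492). One of them, chosen after its values were seen, was Os07g0617000 (similar to ethylene response factor 2), with 1.45 and 0.351 CPM in OX, 5.56 and 7.42 CPM in KO and 5.34 and 7.88 CPM in WT. OX lay below both other genotypes, and its own libraries lay far apart. The log2 fold changes of −2.88 against WT (SE 0.68, adjusted p = 0.0661) and −2.85 against KO (SE 0.68, adjusted p = 0.0753) were not called by edgeR. The DESeq2 Wald test called both (adjusted p = 5.17e-04 and 6.65e-04). In edgeR without OX library 1, of line 3, the falls were larger, at −4.22 and −4.19, so their size depended on that library.

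Among the 4 remaining members, whose descriptions name an AP2 protein or an AP2 domain, 2 were called. Os02g0657000 (Rap211) had 0.504 and 0.351 CPM in OX, 0.153 and 0.183 CPM in KO and 1.01 and 1.21 CPM in WT. These are 4 and 5 reads in the KO libraries, against 26 and 29 in WT, and the fall of −2.69 (SE 0.42, adjusted p = 0.0160) was lost without any KO or WT library (adjusted p from 0.0597 to 0.110). Os09g0423800, similar to AP2-1, had 8.95 and 9.44 CPM in OX, 17.1 and 20.0 CPM in KO and 8.71 and 9.55 CPM in WT. KO stood above both others, by 1.02 over WT (SE 0.14, adjusted p = 0.00865) with OX 1.01 log2 units under KO (−1.01, SE 0.14, adjusted p = 0.00868). The first of these calls was lost with DESeq2 size factors and TMM (adjusted p = 0.0907 and 0.132) and without KO library 2 or WT library 1 (0.0662 and 0.0501), and the second without OX library 1, OX library 2 or KO library 2 (0.0585 to 0.0703). Of the 2 members not called, Os05g0536250 had an adjusted p of 0.0594 by edgeR in both KO versus WT and OX versus KO. The DESeq2 Wald test called it lower in KO versus WT (adjusted p = 0.0253) and higher in OX versus KO (0.0268). With other library sizes edgeR called it too. In KO versus WT this held for DESeq2 size factors and TMM (adjusted p = 0.0220 and 0.0174). In OX versus KO it held for these 2 (0.0306 and 0.0247) and for plain library totals (0.0405).

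**Figure D3:**
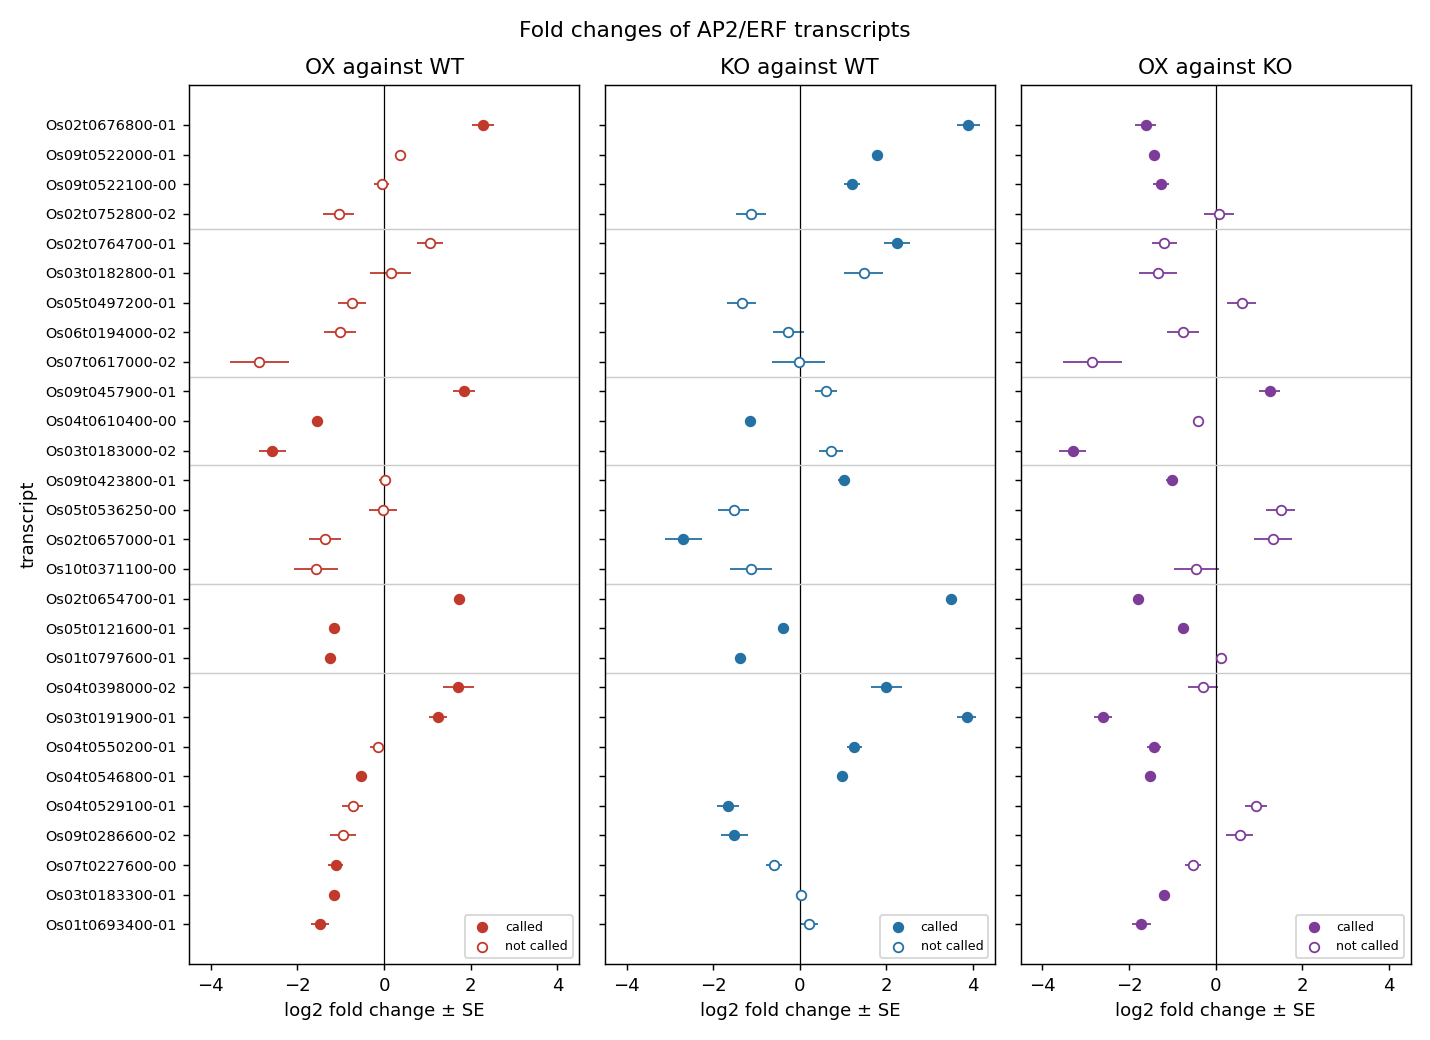
Log2 fold change ± SE of the 28 AP2/ERF transcripts in OX versus WT, KO versus WT and OX versus KO, in the row order of the heat map, with filled points for called transcripts and open points for the others. In the panel for OX versus KO, 12 filled points lie left of 0 and 1 lies right of it.

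OX versus KO compares the 2 altered genotypes without WT. The 12 transcripts called lower in OX were 3 DREB1-like genes, the stress-annotated Os02g0654700, the starch-annotated Os05g0121600, Os03g0183000 of the RAP2.6-like group, the AP2-1-like Os09g0423800 and 5 of the 9 with only the ERF domain. Their log2 fold changes ran from −3.30 to −0.76. The OX versus WT and KO versus WT comparisons share the WT libraries, so the members' values in them are given side by side and no relation between them was computed. In the authors' deposited table, whose test is not named, 6 of the 28 were higher and 12 lower in OX versus WT, 10 higher and 8 lower in KO versus WT, and 14 higher and 2 lower in KO versus OX, at 2-fold and an unadjusted p below 0.05.

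On a scale that corrects for transcript length (the authors' TPM), the 28 transcripts summed to 574 and 587 in OX, 988 and 1037 in KO and 762 and 817 in WT libraries. KO libraries were highest and OX lowest on this scale, without overlap. TPM and CPM differ in the scaling of the libraries as well as in length. Os09t0423800 averaged 9.19 CPM in OX and 9.13 CPM in WT, but 9.18 TPM in OX and 6.57 TPM in WT. Os05t0121600 averaged 282 CPM in KO and 369 CPM in WT, but 251 TPM in KO and 272 TPM in WT. Levels in TPM thus stand higher in OX and in KO relative to WT than levels in CPM do. The order of the sums is that in TPM and need not hold in CPM. The most abundant member in every library was Os05g0121600, which held 29.7% and 28.9% of the sum in OX, 25.4% and 24.2% in KO and 36.2% and 32.8% in WT. The median member reached 7.83 and 8.56 TPM in OX, 12.3 and 16 TPM in KO and 4.20 and 5.11 TPM in WT, far under the most abundant one.

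Some members lie close together on a chromosome. On chromosome 3, Os03g0182800, Os03g0183000 and Os03g0183300 follow each other with gaps of 3.05 kb and 21.7 kb between them. The last 2 were both called lower in OX than in WT and than in KO, while Os03g0182800, similar to OsERF3 and named here for its place, was at 0.284 and 0.380 CPM in OX, 0.920 and 0.768 CPM in KO and 0.387 and 0.209 CPM in WT and was not called. The DREB1B-like and DREB1H-like genes on chromosome 9, described above, are the other close pair. Gaps between the other neighbours within 200 kb were 127 kb (Os02g0654700 and Os02g0657000) and 167 kb (Os04g0546800 and Os04g0550200).

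**Figure D4:**
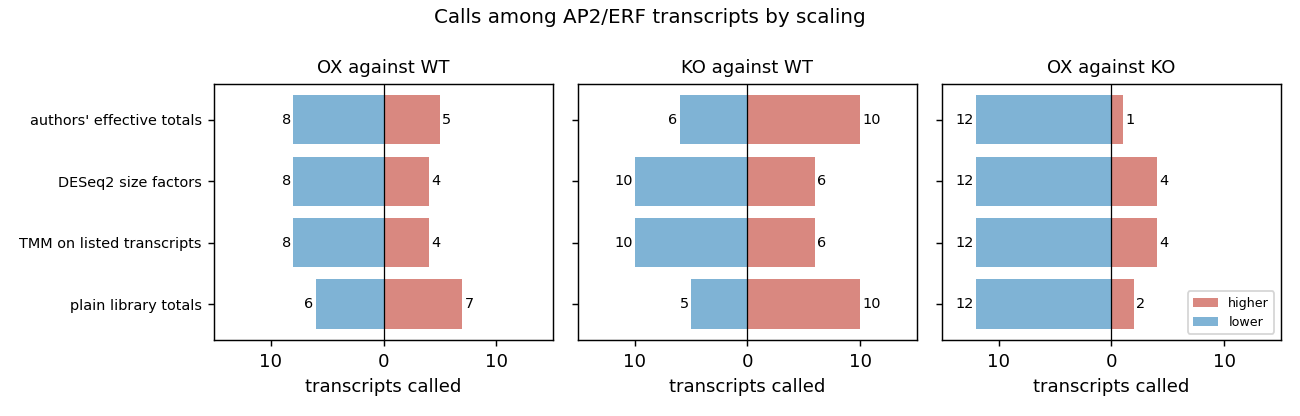
Number of the 28 AP2/ERF transcripts called higher (red, right of 0) and lower (blue, left of 0) in each comparison under 4 choices of library size. In KO versus WT the split is 10 higher and 6 lower with the authors' effective totals, 6 and 10 with DESeq2 size factors or TMM, and 10 and 5 with plain library totals.

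How many members were called higher or lower depended on the library sizes. In OX versus WT the counts were 5 higher and 8 lower with the authors' effective totals, 4 and 8 with DESeq2 size factors or TMM, and 7 and 6 with plain totals. In OX versus KO they were 1 and 12, 4 and 12, and 2 and 12. For all fitted transcripts in KO versus WT the split was 1758 higher and 776 lower with effective totals, 1111 and 1356 with DESeq2 size factors, and 1024 and 1423 with TMM. Of 42 calls among the 28 transcripts, 23 stood under all 12 alternatives and 0 turned in direction.

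Genes of ethylene synthesis and signalling act upstream of many ERF factors. Among 6 listed transcripts for ethylene synthesis, 1 was called higher and 2 lower in OX versus WT, 2 were called higher in KO versus WT, and 2 were called lower in OX versus KO. Of all fitted transcripts 25% were called higher and 19% lower in OX versus WT, 25% higher in KO versus WT and 25% lower in OX versus KO, and with 6 transcripts these counts do not set the list apart. Os04g0578000, an ACC synthase that makes the ethylene precursor, had 0.882 and 1.05 CPM in OX, 6.10 and 6.54 CPM in KO and 0.968 and 0.377 CPM in WT. KO alone was high (log2 fold change 3.22 against WT, SE 0.46, adjusted p = 0.0110), a call that was lost without KO library 1 or 2 (adjusted p = 0.0528 and 0.0578).

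Of the ACC oxidases, which catalyse the last step, Os05g0149400 was at 52.2 and 56.3 CPM in OX, 46.4 and 47.6 CPM in KO and 20.8 and 23.7 CPM in WT. Both altered genotypes were above WT, by 1.28 in OX (SE 0.09, adjusted p = 7.79e-04) and 1.08 in KO (SE 0.09, adjusted p = 0.00164). Os02g0771600, another ACC oxidase, was at 55.8 and 51.2 CPM in OX, 122 and 117 CPM in KO and 119 and 129.5 CPM in WT. OX alone was low, by −1.22 against WT (SE 0.07, adjusted p = 4.49e-04).

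Of 7 listed transcripts for ethylene signalling, 3 were called lower in OX versus WT and 2 higher in KO versus WT. In OX versus KO 3 were called lower, of which 2, both from the CTR1-like gene Os08g0103000, were also lower in OX versus WT. Of all fitted transcripts 19% were called lower in OX versus WT, 25% higher in KO versus WT and 25% lower in OX versus KO. With 7 transcripts, 2 of them from 1 gene, these counts do not set the list apart. Os07g0685700, of the EIN3 family of ethylene-activated transcription factors, had 119 and 121 CPM in OX, 469 and 474 CPM in KO and 125 and 131 CPM in WT. KO libraries stood far above the others, with a log2 fold change of 1.88 against WT (SE 0.05, adjusted p = 5.82e-05) and of −1.97 in OX versus KO (SE 0.05, adjusted p = 6.31e-05), both called under every alternative. The kinase transcript Os08t0103000-01, similar to CTR1, which holds the ethylene pathway off in Arabidopsis, had 29.6 and 28.2 CPM in OX, 96.6 and 98 CPM in KO and 67.9 and 63.8 CPM in WT. It was lower in OX than in WT (−1.19, SE 0.06, adjusted p = 3.33e-04), and its rise in KO (0.56, SE 0.06, adjusted p = 0.00470) did not hold with DESeq2 size factors and TMM (adjusted p = 1.00 with each).

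Cold and dehydration output genes, among which known DREB targets are found in other species, were listed with 18 transcripts, of which 16 could be fitted. In OX versus WT 7 were called higher and 1 lower, and in KO versus WT 5 were called higher, 3 with DESeq2 size factors, TMM or without KO library 2. The 7 higher in OX versus WT include Os05t0542500-01 and Os05t0542500-02, transcripts of the same gene. In OX versus KO 3 were called higher and 5 lower. The shares over all fitted transcripts were 25% higher and 19% lower in OX versus WT, 25% higher in KO versus WT, and 13.3% higher and 25% lower in OX versus KO, so the count in KO versus WT lies near that of the whole table. Os02g0669100, a dehydrin that protects cells during water loss, had 88.8 and 89.1 CPM in OX, 152 and 144 CPM in KO and 61.0 and 54.9 CPM in WT. KO was highest and WT lowest, with log2 fold changes of 0.62 in OX (SE 0.07, adjusted p = 0.00412) and 1.35 in KO (SE 0.07, adjusted p = 3.19e-04) against WT.

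Os01g0170000, a raffinose synthase, had 23.3 and 25.8 CPM in OX, 59.0 and 56.4 CPM in KO and 17.1 and 20.0 CPM in WT, and only KO was called against WT (1.64, SE 0.11, adjusted p = 6.95e-04). Os05g0566800, a COR413-type cold acclimation protein, showed another order, with 19.9 and 21.7 CPM in OX, 5.71 and 5.05 CPM in KO and 4.18 and 5.15 CPM in WT. Here OX was high (2.16 against WT, SE 0.17, adjusted p = 9.59e-04) and KO was not called (0.21, adjusted p = 1.00). The count for OX versus WT was 4 without OX library 2, and that for OX versus KO was 1 higher without OX library 2, KO library 1 or KO library 2.

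Lists meant to mark tissues and cell types were matched by words in the descriptions. Of all fitted transcripts 25% were called higher and 19% lower in OX versus WT, and 25% and 11% in KO versus WT. Several counts below lie near these shares, while the lower calls in the first list lie far above them. Summed levels are in TPM, which scales the libraries differently from CPM. Of 38 photosystem, chlorophyll-binding and Rubisco transcripts, 32 were called lower in OX and 27 lower in KO versus WT, and their summed level was 63142 to 68938 TPM in OX, 89679.9 to 89835 TPM in KO and 112733 to 119922 TPM in WT. Of 80 histone and cyclin transcripts, 9 were called higher and 15 lower in OX, and 18 higher and 13 lower in KO, splits that turned under other scalings (15 and 10 in OX with plain totals, 11 and 16 in KO with DESeq2 size factors). Their sum was 1581 to 1584 TPM in OX, 1034 to 1037 TPM in KO and 1989 to 2083 TPM in WT. The 20 transcripts of secondary wall and vasculature summed to 279.9 to 302 TPM in OX, 207 to 214 TPM in KO and 187 to 201 TPM in WT, with 8 called higher and 1 lower in OX and 4 higher and 1 lower in KO. A list of 13 transcripts had root-specific, Casparian or nodulin in the description, words that need not mark root tissue. They summed to 71.8 to 72.0 TPM in OX, 75.1 to 83.8 TPM in KO and 96.3 to 99.1 TPM in WT. Of the 12 fitted, 1 was called higher and 5 lower in OX, and 2 higher and 4 lower in KO. The 6 pollen or anther transcripts summed to 50.0 to 52.4 TPM in OX, 57.7 to 59.3 TPM in KO and 10.7 to 13.1 TPM in WT, with 3 called higher in OX and 2 in KO. No listed transcript had a count of 0 in any library. The part of these differences in the AP2/ERF results was not tested.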

How the data were processed

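Leaf RNA of 6 libraries (2 OX, 2 KO, 2 WT) was analysed from 1 deposited table (rice build IRGSP-1.0 in the submitters' processing notes), made with a stranded poly(A) kit, per the labels' protocols. The aligner, the counter and the test of the authors are not named in the sources used. The authors deposited estimated counts as whole numbers for each transcript, the deposited FPKM and TPM are length-scaled by the authors, and the authors' deposited log2 values are normalised to an effective total that was recovered here. A signed linear fold, held as a score, and unadjusted and adjusted p-values were deposited by the authors for each of their comparisons. Converted back to reads, FPKM and counts gave plain totals of 28374212 to 33404887 reads.

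Counts were tested with edgeR 4.0.16 (R 4.3.3) by its quasi-likelihood test with robust dispersion, fitting all 6 libraries together on group alone, with the effective totals as library sizes. The filter filterByExpr kept 7034 transcripts, all 36 word matches among them, and removed 160. Benjamini-Hochberg adjustment ran over 27384, the number of transcripts the authors tested, and SE is the log2 fold change over the square root of F. The common dispersion was 0.0847. Libraries of a group differed beyond counting noise (chi-square per degree of freedom 19.3 in OX, 13.9 in KO, 17.1 in WT). DESeq2 1.42.0, other library sizes, no filter, a replicate block and leaving out each library were alternatives. On 4 sets of simulated data for OX versus WT with 7034 transcripts each, 8% of 200 transcripts raised 2-fold and 39.5% of 200 raised 4-fold were called, 6% of 200 lowered 2-fold and 37% of 200 lowered 4-fold, and 11 of 27336 unchanged tests. Far fewer transcripts were changed in each set than were called in the data (1762 higher and 1337 lower in OX versus WT). Adjustment is stricter where few transcripts change, so these shares do not give the power of the test on the data.

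The members and the lists were chosen with earlier results of these data known. Named with values were the gene given in the word rule, every called member up to 10 per comparison and direction, and members called in opposite directions. A planned reading of protein and promoter sequences was not made, as no reference sequence was used here.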

Additional observations from a re-analysis of the deposited data

How the results depend on the processing

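The replicate number was not taken as a pairing. The labels give it no shared batch or plant, and the deviations of same-numbered libraries from their group means correlated by 0.0159 (OX and KO), 0.0771 (OX and WT) and 0.0232 (KO and WT). With the replicate block, 0 AP2/ERF transcripts were called higher in OX versus KO (1 without it), 3 of the 42 calls were lost, and the log2 fold change of Os05t0536250 in OX versus WT was 0.01 in place of −0.03.

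With DESeq2 size factors or TMM, KO versus WT gave 6 higher and 10 lower calls among the 28 (11 lower among the 36), and OX versus KO gave 4 higher (6 among the 36). OX versus KO gave 2 higher with plain totals or the DESeq2 Wald test. The family's median moved to −0.91, −0.92 and −0.37 in OX versus WT (DESeq2 size factors, TMM, plain totals), to −0.37, −0.43 and 0.32 in KO versus WT, and to −0.56 and −0.51 in OX versus KO (the first 2). With DESeq2 size factors or TMM, ethylene synthesis had 1 lower in KO versus WT and 1 higher in OX versus KO, ethylene signalling 1 higher in KO versus WT, and the cold list 3 higher and 1 lower in KO versus WT. In OX versus KO that list had 3 lower with TMM. With plain totals, OX versus WT gave 1 higher for signalling and 0 lower for the cold list.

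Leaving out single libraries gave, among the 28, 3 to 4 higher (3 without OX library 2 or WT library 2) and 6 to 9 lower in OX versus WT, 6 to 9 higher (6 without KO library 2 or WT library 1) and 3 to 6 lower (3 without KO library 1 or WT library 2) in KO versus WT, and 0 to 2 higher (0 without any OX or KO library, 2 without either WT library) and 8 to 13 lower in OX versus KO. Among the 36 it gave 4 to 7, 7 to 10, 8 to 11, 3 to 7, 2 to 4 and 10 to 16 in the same order. The medians ranged from −0.74 to −0.62, 0.02 to 0.29 and −1.01 to −0.84. Ethylene synthesis had 1 to 2 lower in OX versus WT, 1 to 2 higher in KO versus WT and 1 to 2 lower in OX versus KO, signalling 0 to 1 lower in KO versus WT, and the cold list 4 to 7 higher in OX versus WT, 3 to 6 higher in KO versus WT and 1 to 2 higher in OX versus KO.

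Signs turned only for values that were not called in the first place. With DESeq2 size factors and TMM these were Os04t0398000 in OX versus KO (0.03 and 0.08), Os03t0182800 (−0.03 and −0.04) and Os09t0423800 (−0.16 and −0.17) in OX versus WT, and Os03t0183300 (−0.46 and −0.53) and Os01t0693400 (−0.27 and −0.33) in KO versus WT. With plain totals they were Os05t0536250 (0.34), Os09t0522100 (0.31) and Os04t0550200 (0.22) in OX versus WT and Os07t0617000 (0.17) in KO versus WT. Without single libraries they were, in OX versus WT, Os03t0182800 (−0.22 to 0.66), Os09t0423800 (−0.06 to 0.08), Os05t0536250 (−0.34 to 0.36) and Os09t0522100 (−0.12 to 0.01), in KO versus WT, Os06t0194000 (−0.68 to 0.30), Os03t0183300 (−0.04 to 0.09) and Os07t0617000 (−0.28 to 0.28), and in OX versus KO, Os02t0752800 (−0.33 to 0.65). The cause was not tested. With 2 libraries a group and few reads for some members, a change that was not called may still exist.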
